A study of Mus musculus with 4 samples.

Results

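Krüppel-like factors are transcription factors that bind GC-rich and CACCC-like DNA through zinc fingers at the C-terminal end of the protein. The 10 genes described here, Klf2, Klf3, Klf4, Klf5, Klf6, Klf7, Klf9, Klf10, Klf13 and Klf15, were taken by symbol as family members known for work in vessel wall cells or for responses to statins, flow or loss of the contractile state. All 10 had a row among 24342 distinct gene symbols, and 9 of them were among the 12312 genes that passed the filter for testing. RNA came from the aorta of C57BL/6 mice 3 weeks old, with 2 libraries from knockouts (KO) of GGPPS, geranylgeranyl diphosphate synthase, and 2 from wild type (WT). The titles name male and female mice for every library. The sources used here do not give whether a library pools animals, in which cells the gene was deleted or by what allele.

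GGPPS makes the geranylgeranyl lipid that anchors many small GTPases to membranes, and statins deplete the same lipid by blocking the mevalonate pathway upstream. In cultured endothelial cells statins raise KLF2, and adding geranylgeranyl diphosphate back prevents this. KLF2 and KLF4 are also the factors that laminar flow induces in endothelium, through the kinases MEK5 and ERK5 and the MEF2 factors. In smooth muscle, KLF4 and KLF5 are known for repressing or replacing the contractile programme after injury, while KLF15 is abundant in contractile cells and restrains their growth.

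Levels were measured as FPKM, a fragment count scaled for transcript length and library size, so levels of different genes can be set side by side. Ggps1, the targeted gene, was at 1.18 and 1.07 FPKM in KO and at 8.96 and 10.6 FPKM in WT (log2 fold change -2.34, SE 0.13, limma adjusted p = 3.54e-09). All FPKM together summed to 611707 and 632852 in KO and to 515847 and 520398 in WT. Of all genes tested, 65.7% were called at a limma adjusted p under 0.05, 35.2% as higher (4331 genes) and 30.6% as lower (3762 genes) in KO. Scaling the columns to equal totals gave 3116 calls of higher and 5578 of lower. The median change of all tested genes on the log2 scale was 0.03, and -0.20 after that scaling. Smooth muscle markers, which define the bulk of this tissue, held 0.828% and 1.06% of all FPKM in KO and 4.11% and 4.53% in WT, and all 10 were detected in every library.

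Of the 9 tested factors, 3 were called higher (Klf2, Klf4 and Klf6), 5 were called lower (Klf3, Klf7, Klf9, Klf13 and Klf15) and Klf10 was not called. The KO and WT libraries did not overlap for any of the 8 called factors, while over all genes tested 43.6% lay wholly higher and 39.6% wholly lower in KO. The median log2 fold change of the 9 was -0.34, against 0.03 for all genes tested. With so large a share of all genes called, the count itself does not set the family apart, and what follows is about the size and direction of each change. The shares over all genes tested also belong beside every count of list genes below. Klf4 had the 316th largest rise and Klf15 the 181st largest fall among the genes tested.

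**Figure D1:**
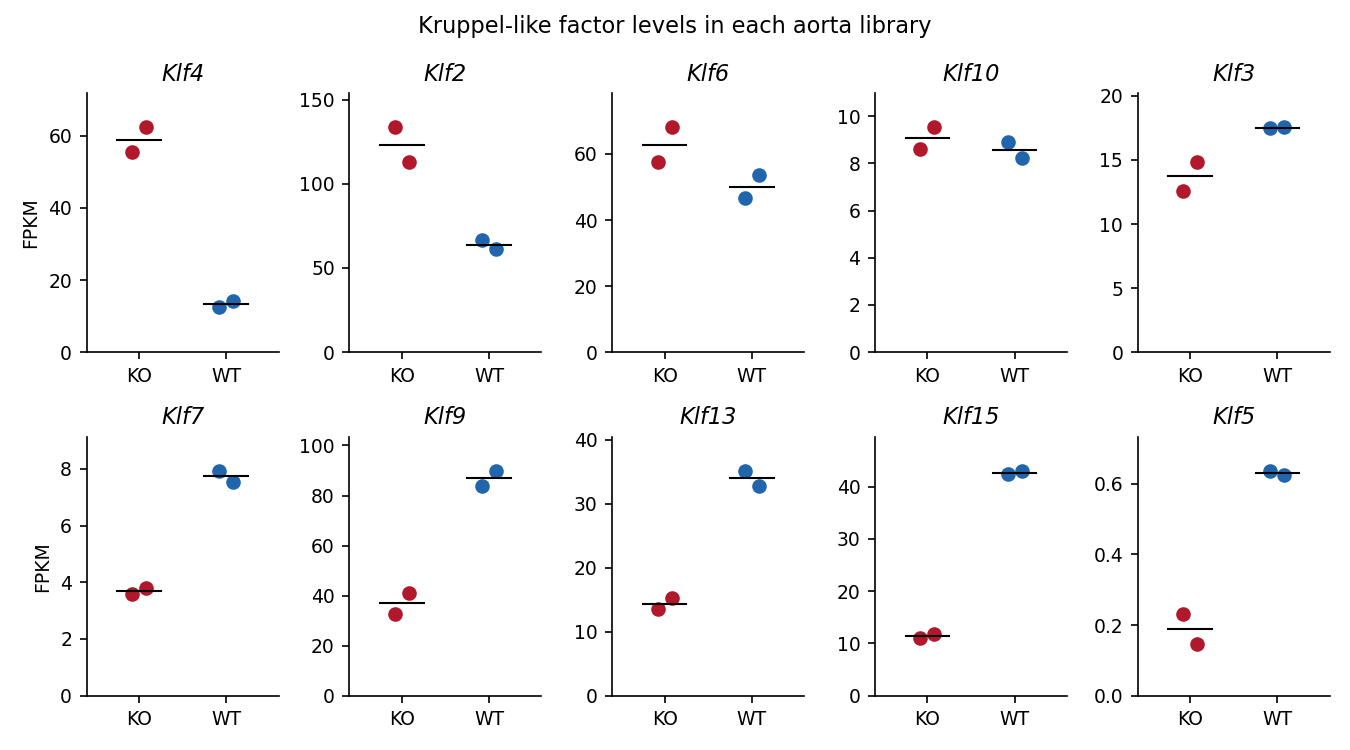
FPKM of each of the 10 factors in the KO libraries (red, left) and the WT libraries (blue, right), 1 point per library, with the mean as a line and a linear axis from 0 in each panel. The KO and WT points are apart in every panel but that of Klf10, with Klf4, Klf2 and Klf6 higher in KO and the other 6 lower.

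Klf4, a zinc finger factor that opposes myocardin-driven contractile genes in smooth muscle, showed the largest rise of the family. Its level was 55.5 and 62.4 FPKM in the KO libraries, against 12.5 and 14.2 FPKM in the WT libraries. Every KO value was thus far above every WT value. The mean was 59.0 ± 4.86 FPKM in KO and 13.3 ± 1.26 FPKM in WT (SD, n = 2 each), 4.42-fold higher in KO, with a log2 fold change of 2.06 (SE 0.11, 95% interval 1.82 to 2.31, limma adjusted p = 3.7e-09). Among all genes tested Klf4 stood at the 87.3 percentile of mean level in KO and at the 57.6 percentile in WT. The gene lies on chromosome 4 (mm10, 55527143 to 55532466, minus strand), with 5 exons in its longest annotated transcript.

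Klf2, the flow- and statin-responsive factor of endothelium, also rose. It was at 134 and 113 FPKM in KO and at 66.5 and 61.1 FPKM in WT, which made it the most abundant of the 10 factors in both KO libraries. The KO values did not overlap those of WT. The mean was 123 ± 14.6 FPKM in KO and 63.8 ± 3.82 FPKM in WT (SD, n = 2 each), 1.93-fold higher in KO (log2 fold change 0.93, SE 0.11, 95% interval 0.70 to 1.17, limma adjusted p = 4.88e-06). Klf2 is a compact gene of 3 exons on chromosome 8 (72319033 to 72321656, plus strand).

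Because Klf2 in vessels is known mainly from endothelium, its level was set beside endothelial markers of the same libraries. Of 12 tested endothelial markers 11 fell and none was called higher (median log2 fold change -1.17), and their summed level was 132.5 and 147 FPKM in KO and 344.2 and 349.8 FPKM in WT. Pecam1, the junction protein CD31, fell to 34.1 and 46.0 FPKM in KO, against 147 and 158 FPKM in WT. The ratio of the Klf2 level to the Pecam1 level was 3.92 and 2.45 in KO and 0.451 and 0.388 in WT. Pecam1 had the largest fall of the tested markers, so the ratio to other markers differed less. Erg had a log2 fold change of -0.45. Esam, not called, was at 17.7 and 15.5 FPKM in KO and 16.3 and 20.1 FPKM in WT. Cdh5, VE-cadherin, was at 3.81 and 3.92 FPKM in KO and 10.1 and 11.4 FPKM in WT. Klf2 RNA was higher while the endothelial marker RNA was lower in the same libraries. In these whole-tissue samples fewer cells of a type and less RNA per cell cannot be told apart, and which cells held the Klf2 RNA was not measured.

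The start regions of Klf2, Klf4 and Klf15 are shown because some hold boxes that MEF2 or clock factors can bind. Each runs from 250 bases before to 50 after the annotated start in RefSeq (GRCm38.p6), written 5′ to 3′ on the gene's own strand, and capitals mark a MEF2 box or the E-box CACGTG.
Klf2, chr8:72318812-72319111, plus strand: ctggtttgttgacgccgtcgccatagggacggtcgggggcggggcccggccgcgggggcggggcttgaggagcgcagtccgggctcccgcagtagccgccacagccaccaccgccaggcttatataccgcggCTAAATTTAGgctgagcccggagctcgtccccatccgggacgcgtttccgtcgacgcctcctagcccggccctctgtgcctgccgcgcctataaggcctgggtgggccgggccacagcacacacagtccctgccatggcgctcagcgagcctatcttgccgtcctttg
Klf4, chr4:55532426-55532725, minus strand: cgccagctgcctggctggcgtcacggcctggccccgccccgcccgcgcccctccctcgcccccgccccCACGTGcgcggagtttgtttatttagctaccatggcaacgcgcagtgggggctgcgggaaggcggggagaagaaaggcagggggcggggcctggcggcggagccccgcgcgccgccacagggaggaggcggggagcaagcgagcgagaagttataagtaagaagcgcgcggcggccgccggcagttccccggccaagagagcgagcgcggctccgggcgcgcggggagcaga
Klf15, chr6:90462326-90462625, plus strand: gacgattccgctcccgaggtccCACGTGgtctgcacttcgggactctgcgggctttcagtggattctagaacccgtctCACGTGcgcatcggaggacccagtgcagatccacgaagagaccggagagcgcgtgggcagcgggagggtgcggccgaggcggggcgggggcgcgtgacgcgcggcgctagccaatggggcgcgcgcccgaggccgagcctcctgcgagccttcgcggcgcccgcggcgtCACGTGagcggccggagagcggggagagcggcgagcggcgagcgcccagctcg

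The RefSeq table held windows for 8 of the 10 factors. Both strands were searched for these motifs, the CACCC box, the CCAAT box, the cyclic AMP half-site TGACG and the clock D-box TTANGTAA. The MEF2 box was found only in the Klf2 window, 118 bases before the start, and 3.26% of 27025 promoters of the same length hold one. The E-box CACGTG, which reads the same on both strands, occurred 3 times in the Klf15 window and 1 time each in those of Klf4 and Klf6. The Klf15 copy nearest the start shares bases with a cyclic AMP half-site. At least 1 such E-box is in 7.24% of all promoters and 3 or more are in 0.0888%. The GC box GGGCGG, a letter string that Krüppel-like and SP factors can bind, was present in 7 of the 8 windows, with 6 copies for Klf3, 4 for Klf4, 2 for Klf2 and none for Klf9, and 35.9% of all promoters hold it. No CArG box, the site of serum response factor, and no D-box was found in any of the 8 windows. The 8 windows held 58.3% to 76.7% G and C, against a median of 52.7% for all promoters, and the shares above were not adjusted for this. All of these motif finds are matches of letters and not measured binding.

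Known inputs to Klf2 and Klf4, the MEF2 factors among them, were mostly lower in KO. Of 11 tested genes in this list 7 fell and 2 rose (median log2 fold change -0.35). The list holds inputs that raise Klf2 and Klf4 and inputs that restrain them, so its count and median do not give the direction of the input. Mef2c was at 7.28 and 9.77 FPKM in KO and 16.9 and 19.2 FPKM in WT, and Mef2d at 26.7 and 25.3 FPKM in KO and 48.5 and 45.2 FPKM in WT. Heg1, the endothelial receptor of the cerebral cavernous malformation (CCM) pathway, which restrains Klf2 and Klf4, was at 5.81 and 7.64 FPKM in KO and 22.5 and 21.9 FPKM in WT (limma adjusted p = 1.69e-07). The 2 called higher were Ccm2 (0.53, limma adjusted p = 0.000398) and Pdcd10 (0.28, limma adjusted p = 0.047). Their products form the CCM complex with that of Krit1, which was called lower (-0.35, limma adjusted p = 0.0293), so the genes of the complex went both ways. Pdcd10 lost its call under 8 of 13 alternatives, among them equal column totals (0.023, limma adjusted p = 0.858) and leaving out KO replicate 2, WT replicate 1 or WT replicate 2. The call of Krit1, and that of the kinase gene Map3k2 (-0.32), ended without KO replicate 1, WT replicate 1 or WT replicate 2 and with no filter. Mapk7, which encodes ERK5, was at 33.3 and 31.0 FPKM in KO and 31.1 and 27.4 FPKM in WT and was not called.

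Genes that KLF2 or KLF4 is known to raise in endothelium were mostly lower in KO. Of 11 tested 6 fell and 3 rose (median log2 fold change -0.47), beside the fall of the endothelial markers given above, whose part in this was not tested. Nos3, endothelial nitric oxide synthase, was at 9.54 and 9.42 FPKM in KO and at 26.3 and 20.5 FPKM in WT (log2 fold change -1.21, SE 0.13, limma adjusted p = 2.15e-06). Tek, the angiopoietin receptor, fell by 1.46 on the log2 scale (limma adjusted p = 8.03e-07). Thbd, thrombomodulin, was called higher at 0.31 (limma adjusted p = 0.0279), as were Aqp1 at 0.30 (0.0126) and Ass1 at 2.84 (3.1e-05). Scaling to equal totals, or leaving out WT replicate 1 or WT replicate 2, ended the calls of Thbd and Aqp1, and Thbd also lost its call without KO replicate 2 (limma adjusted p = 0.11). Ass1 was at 5.92 and 0.730 FPKM in the WT libraries, and its call ended under robust estimation (limma adjusted p = 0.121).

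Genes that the same factors are known to lower in endothelium went both ways, with 4 of 9 higher and 5 lower. Vcam1, a leukocyte adhesion molecule, was at 457 and 460.5 FPKM in KO and 5.97 and 7.41 FPKM in WT. Edn1, endothelin 1, was at 3.55 and 3.26 FPKM in KO and 16.8 and 14.3 FPKM in WT. Thbs1 and Ccl2 were also called higher, by 4.62 and 4.51 on the log2 scale, and F3, Ackr3, Angpt2 and Icam1 the other genes called lower, with log2 fold changes of -2.22, -1.68, -1.09 and -0.30. The Icam1 call ended without KO replicate 2, WT replicate 1 or WT replicate 2 (limma adjusted p = 0.0687, 0.154 and 0.28) and with no filter. Smooth muscle cells and macrophages can make Vcam1, Thbs1 and Ccl2 too. Ccl2, at 0.443 and 0.498 FPKM in WT, reached 1 FPKM only in KO libraries, so its call of higher is partly set by the filter.

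Beside the higher Klf4, all 12 tested contractile genes that KLF4 is known to repress were lower in KO (median log2 fold change -2.22). Acta2, Tagln, Myh11, Cnn1, Smtn, Lmod1 and Synpo2 of this list are also smooth muscle markers. All 10 smooth muscle markers were called lower (median -2.265). Fewer smooth muscle cells and less RNA per cell cannot be told apart here, and the part of KLF4 was not tested. Lmod1, leiomodin, was at 56.8 and 70.3 FPKM in KO and 270.8 and 281.8 FPKM in WT. Synpo2, Ldb3 and Des, which encode actin-anchoring and intermediate filament proteins, fell by 2.77, 2.55 and 2.22 on the log2 scale. Of 10 genes reported to rise with KLF4 in modulated smooth muscle, 9 rose and Col15a1, a basement membrane collagen, fell (median 3.06). Spp1, osteopontin, stood at 1006 and 853 FPKM in KO and at 0.0617 and 0.159 FPKM in WT, and Timp1, Lgals3 and Tnfrsf11b were higher by 6.36, 5.45 and 4.08 on the log2 scale. Of 12 macrophage markers 11 rose alongside and Mertk was lower, and their summed level was 567 and 486.5 FPKM in KO and 97.2 and 101.5 FPKM in WT. Of 11 leukocyte markers 5 were tested and all 5 were called higher, with sums over the list of 116 and 86.1 FPKM in KO and 6.04 and 4.60 FPKM in WT. The rest of the list, Cd3d, Cd3e, Cd79a, Ms4a1, Nkg7 and S100a9, was under 1 FPKM in every library and was not tested. Ptprc and S100a8, like Spp1 and the macrophage markers Adgre1, Fcgr1 and Itgam, reached 1 FPKM only in KO libraries. These genes passed the filter through that group alone, so their calls of higher are partly set by the filter. One of the 5, S100a8, was at 1.08 and 1.65 FPKM in KO and 0.922 and 0 FPKM in WT, and its call ended under 6 of 13 alternatives, among them leaving out KO replicate 1, KO replicate 2 or WT replicate 2 (limma adjusted p = 0.0766, 0.215 and 0.141). Cd68 counts both among the genes reported to rise with KLF4 and among the macrophage markers. Lgals3 and Spp1 are made by macrophages as well, Klf4 is known in monocytes and macrophages, and the part of these cells was not tested.

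**Figure D2:**
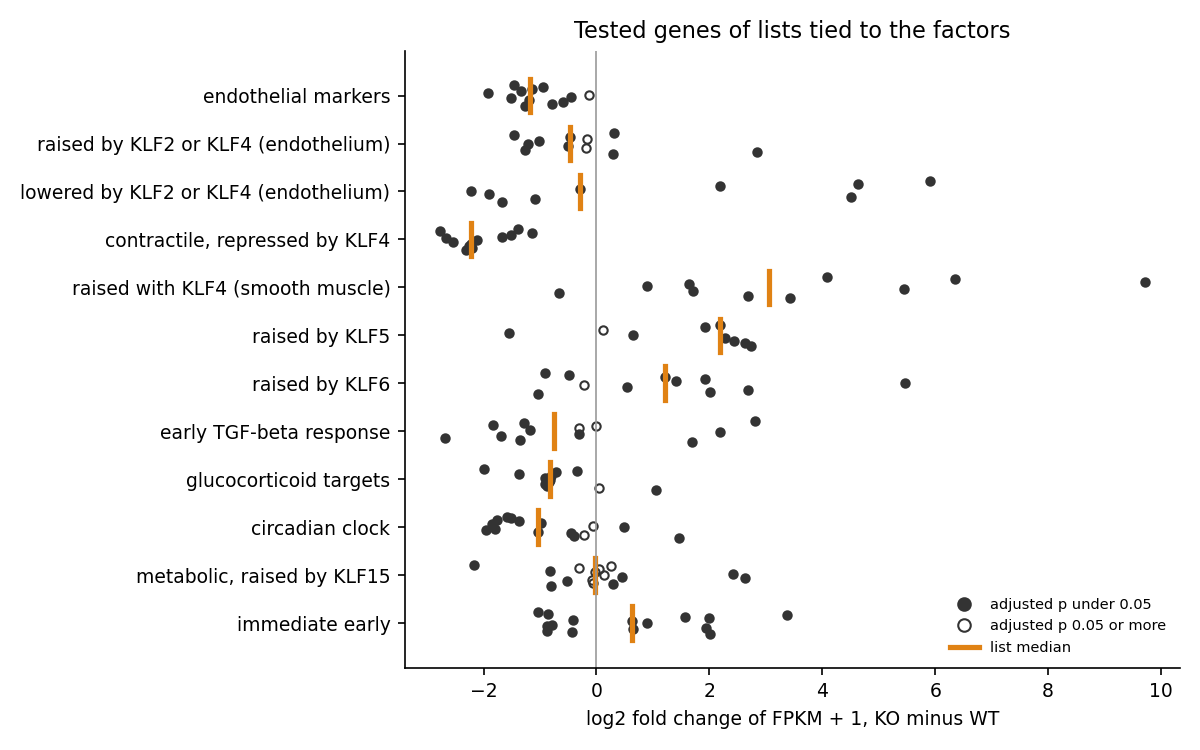
Log2 fold change of FPKM + 1, KO minus WT, for the tested genes of 12 lists tied to the factors, 1 point per gene, filled where the limma adjusted p is under 0.05, with the list median as an orange bar and a small vertical spread that only separates points. All 12 contractile genes lie left of 0, while 9 of 10 genes raised with KLF4 in smooth muscle lie right of it and the metabolic genes raised by KLF15 are centred near 0.

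Klf6, induced by wounding and by TGF-beta in vessel cells, was high in both genotypes. It stood at 57.5 and 68.1 FPKM in KO and at 46.6 and 53.5 FPKM in WT. The ranges lie close together without overlapping. The difference was 0.32 on the log2 scale (SE 0.12, 95% interval 0.071 to 0.57, limma adjusted p = 0.0257). The call ended with equal column totals (0.060, limma adjusted p = 0.629), with no filter (0.0735), without KO replicate 2 (0.20, limma adjusted p = 0.154) and without WT replicate 1 (0.22, limma adjusted p = 0.282). Over all 13 alternatives the difference ranged from 0.060 to 0.44. Among 11 tested genes that KLF6 is known to raise, 7 rose and 3 fell (median 1.22). Hmox1, heme oxygenase 1, was at 172 and 176 FPKM in KO and 3.00 and 2.94 FPKM in WT, and Cdkn1a, Atf3 and Plau were higher by 2.69, 2.01 and 1.92 on the log2 scale. The 3 that fell, Acvrl1, Tgfbr2 and Tgfbr1, encode TGF-beta family receptors. None of these genes is a target of KLF6 alone.

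Klf10, also called TGF-beta inducible early gene 1, was the factor with overlapping groups. It was at 8.61 and 9.54 FPKM in KO and at 8.91 and 8.25 FPKM in WT. The log2 difference was 0.071 (SE 0.12, limma adjusted p = 0.62), with a 95% interval of -0.19 to 0.33. It lay below 0 with equal column totals (-0.17) and once trends over length and GC content were removed (-0.027), and no alternative called it. Other early TGF-beta response genes were called in both directions, with 7 of 12 lower and 3 higher (median -0.75). Id3 was at 130 and 157 FPKM in KO and 484.4 and 442 FPKM in WT, and Id2 fell by 2.68 on the log2 scale. Tgif1 and Bhlhe40 were among those that rose, by 2.80 and 1.69. Klf10 thus stayed within its spread while other genes of the list were called higher or lower. The activity of TGF-beta itself was not measured, and the count and median do not give its direction.

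Klf5, which in mice is induced in injured arteries and drives smooth muscle growth, was the least abundant of the 10 factors. It was at 0.231 and 0.147 FPKM in KO and at 0.637 and 0.625 FPKM in WT. Both KO values lay below both WT values, but no library reached 1 FPKM and the gene was not tested at that filter. With no filter on low values its log2 fold change was -0.46 (SE 0.058, limma adjusted p = 0.00218). The ratio of mean FPKM, KO over WT, was 0.299, and adding 1 to values this low makes the log2 change smaller. Genes that KLF5 is known to raise rose in 7 of 9 tested cases (median 2.18), mostly cell cycle genes with many other regulators. Ccnd1, cyclin D1, was at 16.8 and 14.3 FPKM in KO and 2.11 and 1.98 FPKM in WT, and Birc5 and Ccnb1 were higher by 2.74 and 2.64 on the log2 scale. Myh10, the embryonic-type myosin heavy chain that is a textbook KLF5 target in smooth muscle, was the 1 gene of the list that fell, to 37.5 and 52.1 FPKM in KO against 130 and 133 FPKM in WT.

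Klf15, known from contractile smooth muscle, heart and liver as a glucocorticoid- and clock-responsive regulator of amino acid and lipid use, showed the largest fall of the family. It was at 11.0 and 11.7 FPKM in KO and at 42.3 and 43.0 FPKM in WT. The libraries of a genotype lay close together and far from those of the other. The mean was 11.4 ± 0.522 FPKM in KO and 42.7 ± 0.498 FPKM in WT (SD, n = 2 each), a ratio of 0.266, with a log2 fold change of -1.82 (SE 0.11, 95% interval -2.05 to -1.59, limma adjusted p = 7.41e-09). Its ratio to the Klf4 level was 0.198 and 0.188 in KO and 3.40 and 3.02 in WT. The gene is on chromosome 6 (90462576 to 90475238, plus strand).

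Klf9, a repressor induced by glucocorticoid and thyroid hormone, was the most abundant of the 10 factors in WT and fell in KO. It was at 32.8 and 40.9 FPKM in KO and at 83.8 and 89.9 FPKM in WT. The KO values lay below both WT values by a wide margin (36.9 ± 5.76 FPKM in KO and 86.9 ± 4.32 FPKM in WT, SD, n = 2 each, log2 fold change -1.22, SE 0.12, limma adjusted p = 7.55e-07). Klf9 is on chromosome 19 (23141226 to 23168134, plus strand) and has 2 exons, as does Klf13.

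Klf9 and Klf15 are known targets of the glucocorticoid receptor, and of 10 other targets 8 were lower in KO and Cebpb was higher. The receptor gene itself, Nr3c1, was at 9.78 and 12.6 FPKM in KO and 20.6 and 23.3 FPKM in WT (limma adjusted p = 3.59e-05). The related mineralocorticoid receptor gene, Nr3c2, was called lower as well, at 0.1975 and 0.1325 FPKM in KO and 1.062 and 1.025 FPKM in WT. It thus passed the filter of 1 FPKM narrowly and through the WT libraries alone. Over all 12 genes, Nr3c2 included, the median log2 fold change was -0.83. The call of Tsc22d3, a target, ended without WT replicate 1 or WT replicate 2. Per1 was at 22.6 and 20.5 FPKM in KO and 57.4 and 56.4 FPKM in WT. Zbtb16 and Dusp1 fell by 1.99 and 0.87 on the log2 scale. Cebpb, which inflammatory signals also induce, was at 221 and 197 FPKM in KO and 103 and 95.7 FPKM in WT.

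Klf9, Klf10 and Klf15 are also rhythmic outputs of the circadian clock in several mouse tissues. Of 15 tested clock genes 11 were lower and 2 higher (median -1.04). Nr1d1, a repressor of the clock, was at 30.1 and 29.1 FPKM in KO and 102 and 117 FPKM in WT, and Per2, Tef and Hlf fell by 1.76, 1.58 and 1.80 on the log2 scale. Arntl, which encodes the activator BMAL1 that binds the CACGTG E-box, was at 5.42 and 5.82 FPKM in KO and 1.42 and 1.41 FPKM in WT. The other gene called higher, Nfil3, lost its call without KO replicate 2 or WT replicate 1 (limma adjusted p = 0.202 and 0.197) and after scaling to equal totals (0.161). Among those called lower, Cry1 overlapped between the genotypes, and its call ended without KO replicate 1 (-0.17, limma adjusted p = 0.49) or WT replicate 1 (-0.22, limma adjusted p = 0.35). That of Ciart ended without KO replicate 1 or WT replicate 2 (limma adjusted p = 0.057 and 0.142). The sources used here do not give the hour of collection, so it and the genotype cannot be told apart for these genes.

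Metabolic genes that KLF15 is known to raise in liver, heart or muscle did not move together with it. Of 15 tested 4 rose and 4 fell (median -0.022). With equal column totals 2 were higher and 8 lower. Got1 and Gpt2, enzymes that move amino groups between amino acids and oxoacids, rose by 2.64 and 2.42 on the log2 scale. Slc2a4, the insulin-responsive glucose transporter, was at 1.82 and 2.30 FPKM in KO and 12.0 and 13.3 FPKM in WT, and Ivd, an enzyme of leucine breakdown, fell by 0.82.

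Klf13, known for activating Ccl5 late in T cell stimulation and also expressed in heart and muscle, was at 13.5 and 15.3 FPKM in KO and at 35.2 and 32.8 FPKM in WT. The groups were well apart. The KO level was 0.424 of the WT level (log2 fold change -1.19, SE 0.11, limma adjusted p = 7.08e-07), and -0.75 once trends over length and GC content were removed (limma adjusted p = 9.67e-05).

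Klf7, known from neurons and fat cells, was at 3.58 and 3.80 FPKM in KO and at 7.94 and 7.55 FPKM in WT. Again the groups did not overlap. Its log2 fold change was -0.90 (SE 0.12, limma adjusted p = 1.97e-05), and -0.53 once the same trends were removed (limma adjusted p = 0.000923). A pseudocount of 5 gave -0.55. Klf7 and Klf13 have the longest annotated transcripts of the 10 factors, at 7662 and 6396 bases, against 1847 for Klf2, the shortest.

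Klf3, a repressor that recruits the corepressor CtBP, was at 12.6 and 14.9 FPKM in KO and at 17.5 and 17.6 FPKM in WT. The groups did not overlap, and both KO values lay below the closely matched WT values. The log2 fold change was -0.34 (SE 0.12, 95% interval -0.59 to -0.080, limma adjusted p = 0.0233). The call ended once trends over length and GC content were removed (-0.18, limma adjusted p = 0.148), with no filter (0.0501), and without KO replicate 1 (-0.22, limma adjusted p = 0.0795), WT replicate 1 (0.134) or WT replicate 2 (0.14). Over all 13 alternatives the difference ranged from -0.58 to -0.18. Klf3, Klf7 and Klf13 overlap annotated genes on the opposite strand. Of these only E030018B13Rik, inside Klf13, has a row in the files, at 0.0411 and 0.136 FPKM in KO and 0.0462 and 0.119 FPKM in WT.

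**Figure D3:**
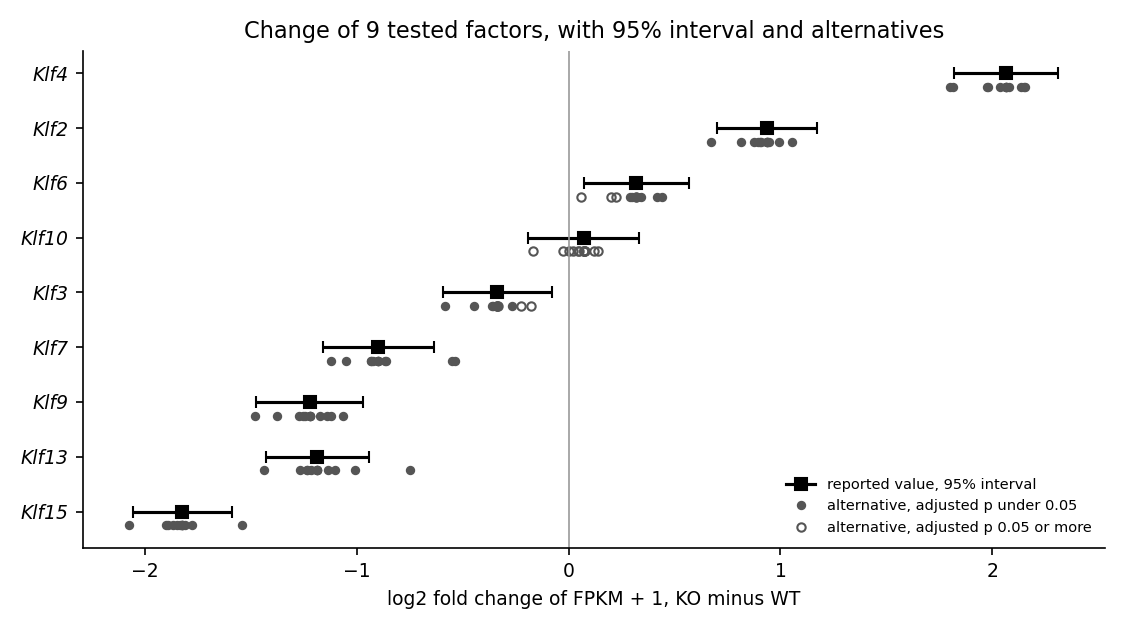
Log2 fold change of FPKM + 1, KO minus WT, of the 9 tested factors, with the reported value and its 95% interval as squares and bars and 13 alternatives as points under them, open where the limma adjusted p is 0.05 or more. Klf4, Klf2, Klf7, Klf9, Klf13 and Klf15 stay on their side of 0 with every point filled, while Klf6 and Klf3 have open points and Klf10 has open points only.

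Set side by side, the rises and falls nearly balanced in sum. The 10 factors together were at 329 and 340 FPKM in KO and at 322 and 329 FPKM in WT. As a share of all FPKM, which summed higher in KO, they held 0.0538% and 0.0537% in KO and 0.0624% and 0.0631% in WT. What differed was the make-up of the sum. Grouped after their values were seen, Klf2, Klf4 and Klf6 made up 75.0% and 71.7% of it in KO and 39.0% and 39.2% in WT. Klf9, Klf13 and Klf15 made up 17.4% and 20.0% in KO and 50.1% and 50.4% in WT. Klf2 alone held 40.6% and 33.2% in KO and 20.7% and 18.6% in WT.

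**Figure D4:**
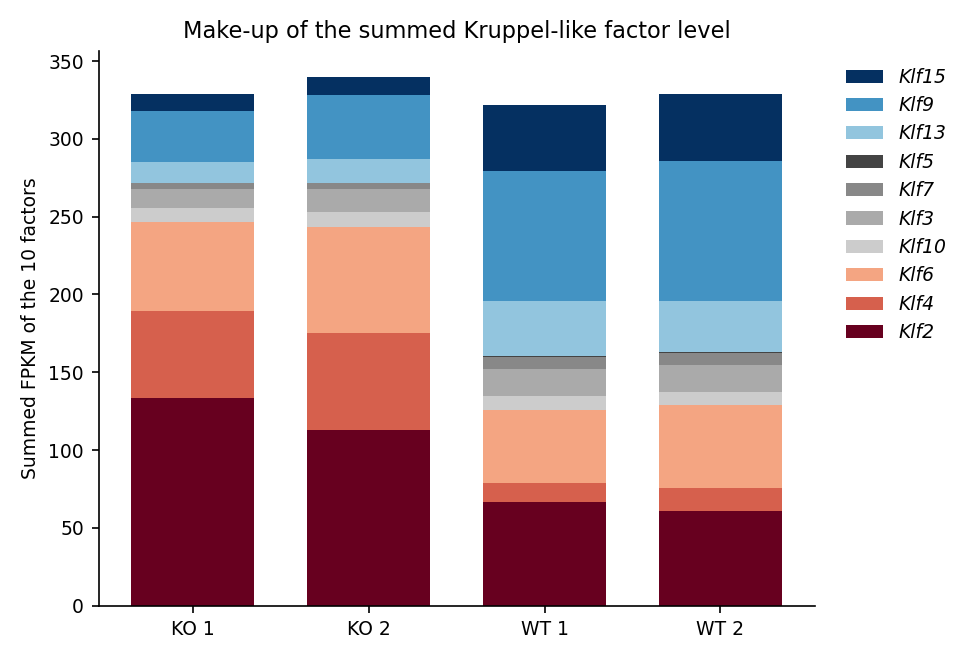
Summed FPKM of the 10 factors in each library, stacked by gene, with KO replicates 1 and 2 left of WT replicates 1 and 2 and the axis starting at 0. The bars are of like height, at 329 and 340 FPKM in KO and 322 and 329 FPKM in WT, while the red part (Klf2, Klf4 and Klf6) is larger in KO and the blue part (Klf9, Klf13 and Klf15) larger in WT.

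The order of levels was the same in both libraries of a genotype and differed between genotypes. In KO it ran from Klf2 through Klf6, Klf4, Klf9, Klf13, Klf3, Klf15, Klf10 and Klf7 to Klf5. The libraries of Klf6 and Klf4 overlapped in KO, as did those of Klf13 and Klf3, so these neighbours did not differ beyond their spread. In WT it ran from Klf9 through Klf2, Klf6, Klf15, Klf13, Klf3, Klf4, Klf10 and Klf7 to Klf5, and no neighbours overlapped. Klf4 held the third place in KO, against the seventh in WT, and Klf15 the seventh place in KO, against the fourth in WT. The ratio of Klf4 to Klf2 was 0.416 and 0.553 in KO and 0.187 and 0.233 in WT, so Klf4 gained on Klf2 although both rose.

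Relatives outside the 10 factors were measured too. Of 7 further Krüppel-like genes 4 were tested. Klf16, a repressor related to Klf9 and Klf13, was the 1 that rose, with 13.8 and 10.6 FPKM in KO and 6.32 and 5.91 FPKM in WT (log2 fold change 0.88, limma adjusted p = 6.77e-05). Klf8 and Klf11 had log2 fold changes of -0.40 and -0.38 (limma adjusted p = 0.0125 and 0.0144). Both calls ended without WT replicate 2, and that of Klf8 without KO replicate 1. The SP factors, which bind the same GC boxes, fell in 3 of 4 tested cases with none called higher. Over all genes tested 30.6% were called lower and 35.2% higher. Sp1 was at 8.77 and 9.82 FPKM in KO and at 15.3 in each WT library, and Sp4 and Sp2 had log2 fold changes of -0.53 and -0.41, and Sp2 was not called without WT replicate 2 (limma adjusted p = 0.129).

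Klf2, Klf4, Klf6 and Klf10 behave as immediate early genes, which handling of tissue can induce. The 15 genes of a general immediate early list did not move one way, with 8 higher and 7 lower (median 0.62). Myc, Junb, Atf3 and Egr2 rose by 3.37, 1.99, 2.01 and 1.94 on the log2 scale. Egr2, at 0.351 and 0.314 FPKM in WT, reached 1 FPKM only in KO libraries, so its call of higher is partly set by the filter. Fos was at 4.55 and 8.05 FPKM in KO and 12.8 and 11.5 FPKM in WT, and Jun, Fosb, Dusp1, Nr4a1, Zfp36 and Btg2 were called lower as well. The Jun call ended without KO replicate 1 or WT replicate 1 and with no filter, and that of Btg2 without WT replicate 1. Whether handling differed between the genotypes was not tested.

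Markers of other cell types that an aorta dissection can hold were measured too. Fibroblast markers were lower in 8 of 10 cases and higher in 1, Lum, with sums of 1061 and 1264 FPKM in KO and 2462 and 2445 FPKM in WT. The call of Dcn, decorin, at -0.33, ended without KO replicate 1, KO replicate 2 or WT replicate 2 (limma adjusted p = 0.148, 0.063 and 0.397, with -0.17 in the last case). Adipocyte markers, from the fat around the vessel, were called lower in 1 of 4 tested cases (Fabp4), and Adipoq, which defines these cells, was under 1 FPKM in every library. So were Plin1, Cidec, Ucp1, Lep and Retn. The part of these other cell types in the levels of Klf9, Klf13 and Klf15, which they also express, was not tested.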

How the data were processed

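Aorta RNA was measured by RNA-seq in 4 libraries. The values deposited by the authors are FPKM, per the file headers (which misspell the unit). Aligner, counter and build, as far as the submitters' processing notes list them without roles, are mm10, DESeq2 (1.16.1), featureCounts (1.5.0-p3) and HISAT2 (2.0.5). Which program made the FPKM, and whether strand was used, was not stated there. Eln, which aorta uses heavily, was at 0 in every library, so a 0 is only a listed value. Low values shared no common step (the most frequent ratio under 0.3 FPKM covered 0.302% to 0.485% of genes), so depth is unknown.

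The filter kept 12312 genes that reached 1 FPKM in 2 or more libraries. They were tested, KO minus WT, on log2(FPKM + 1) with limma 3.58.1 under R 4.3.3, using an intensity trend, Benjamini-Hochberg adjustment over all of them and a threshold of 0.05. The fit was tested on simulated data. Folds are ratios of mean FPKM. The 13 alternatives were pseudocounts of 0.1 and 5, no filter, a filter of 5 FPKM, equal column totals, median-ratio scaling, robust estimation, no intensity trend, each library left out, and removal of trends over transcript length and GC content (GENCODE M21). Genotype labels set the groups, and replicate numbers are names only. Nothing says that libraries of a genotype are separate animals, so p-values cover the spread between libraries, which may be technical. Members and lists were chosen with earlier results of these data known. The rule for names took every member, Ggps1 and up to 4 called genes of each list by smallest p. Genes against a list's majority, Edn1, Nr3c1, Nr3c2, Mapk7, Fbxw7, Adipoq and the immediate early genes called lower, and genes named only because a call ended, were named after their values were seen. A gene that the rule selects but the text does not name is not reported here.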

Additional observations from a re-analysis of the deposited data

How the results depend on the processing

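Each of the 9 tested factors was refitted under 13 alternatives, 117 values in all. In 108 of these the direction of called factors and the side of the threshold were as reported. The other 9 belong to Klf3 (5) and Klf6 (4), whose calls ended as given above, and no called factor reversed. Klf2 ranged from 0.67 to 1.05, Klf4 from 1.80 to 2.15, Klf7 from -1.12 to -0.53, Klf9 from -1.48 to -1.07, Klf13 from -1.44 to -0.75 and Klf15 from -2.07 to -1.54. Between 2 and 3 factors were called higher and between 4 and 5 lower. Among list genes, the reversals were of Map3k2, a kinase upstream of MEK5, and of Ncor1, a corepressor, at 0.082 and 0.0052 (limma adjusted p = 0.513 and 0.97) once trends over length and GC content were removed, against -0.32 and -0.48 as reported. The cause was not tested. List genes not mentioned so far whose calls ended when a library was left out were Slc9a3r2 (WT replicate 1), Col1a1 (KO replicate 1), Pmepa1 (KO replicate 2 or WT replicate 1), Bcat2 (KO replicate 1, WT replicate 1 or WT replicate 2), Ctbp1 and Hdac2 (KO replicate 2, WT replicate 1 or WT replicate 2) and Sin3a (KO replicate 1, WT replicate 1 or WT replicate 2). The calls of Ctbp2 (WT replicate 1), Fzr1 (WT replicate 2), Smurf2 (WT replicate 1 or WT replicate 2) and Smurf1 (KO replicate 2, WT replicate 1 or WT replicate 2) ended likewise. No paired analysis was possible because the labels number the 4 libraries without a number shared between genotypes. With unknown depth and 2 libraries per genotype, precision rests on limma's pooled variance.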

Other observations

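Partners of the factors were measured as well. Over all genes tested 35.2% were called higher and 30.6% lower, shares that belong beside each count of partners given here. Of 10 corepressors that Krüppel-like factors recruit, 5 were called higher and 2 lower in KO. Fhl3, a LIM protein that binds Klf3, was at 27.1 and 27.4 FPKM in KO and 11.0 and 10.6 FPKM in WT, and Sin3b and Ctbp2 rose by 0.53 and 0.44 on the log2 scale. Ctbp2 was not called with equal column totals (0.20, limma adjusted p = 0.0979). Ncor1 had a log2 fold change of -0.48, which was 0.0052 once trends over length and GC content were removed. With equal column totals 2 were higher and 4 lower, and 2 were higher without WT replicate 1 and 3 without KO replicate 2 or WT replicate 2. Of 10 ubiquitin ligase genes that act on Krüppel-like proteins 4 were called higher and none lower, against 1 higher and 2 lower with equal column totals. The higher calls numbered 2 without WT replicate 1 and 1 without WT replicate 2. Cdc20, also a mitotic gene, was at 17.5 and 19.5 FPKM in KO and 2.89 and 2.27 FPKM in WT, while Fzr1, Smurf2 and Smurf1 were higher by 0.41 or less and none of these last 3 was called with equal column totals. Fbxw7, which targets KLF2 and KLF5 for breakdown, was at 3.77 and 4.30 FPKM in KO and 3.58 and 3.71 FPKM in WT and was not called.

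Erythroid genes, a sign of blood left in the vessel, were not called with all libraries, but both tested ones were called lower in KO without KO replicate 2 and with equal column totals. Hbb-bs was at 37.3 and 163 FPKM in KO and 129 and 159.5 FPKM in WT, so KO replicate 1 held the least of it.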
